A study of Arabidopsis thaliana with 9 samples.

Results

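Peaks of H3K27me3 and H3K27me1 were examined at 10 floral organ MADS-box genes of Arabidopsis thaliana, out of 27444 nuclear protein-coding genes. The members were taken by locus from the known families of floral organ genes, with no threshold on a measured value, but earlier results of these data were known when they were chosen. They were the class C and D genes AG (AT4G18960), SHP1 (AT3G58780), SHP2 (AT2G42830) and STK (AT4G09960), the class B genes AP3 (AT3G54340) and PI (AT5G20240), and the class E genes SEP1 (AT5G15800), SEP2 (AT3G02310), SEP3 (AT1G24260) and SEP4 (AT2G03710). All 10 were found in the gene table.

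The chromatin came from sperm nuclei of htr10 mutant plants, sorted by FACS with SYBR Green I, and was cut to mononucleosomes with micrococcal nuclease. There were 3 immunoprecipitations with anti-H3K27me3, 3 with anti-H3K27me1 and 3 inputs of digested chromatin without antibody, all from htr10. HTR10 is the gene of a histone H3 variant found in sperm. The labels do not name the mutant allele. Other genotypes were not analysed here, and what the mutation changes cannot be read from these values. The ecotype label read Col-0 for 5 samples and Col-1, Col-2, Col-3 and Col-4 for 1 sample each, and whether these name different ecotypes could not be settled from the labels. Each mark had 1 broad and 1 narrow peak list for its 3 samples together. No value below therefore has a replicate error, no test between samples could be made, and the sequencing depth is unknown. Peak lists hold no expression values, so the identity of the nuclei could not be checked on marker genes. HTR10 itself (AT1G19890) had 0% of its body under broad peaks of either mark. Its flanks were at 0% for H3K27me3 and 14.6% for H3K27me1.

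MADS-box transcription factors of the floral organ group act in combinations that specify organ identity in the flower. Class B factors act in petals and stamens, class C factors in stamens and carpels, class D factors in ovules, and class E factors are their partners in all of these organs. Outside the flower most of these genes are largely kept silent, and AG is a classic target of Polycomb group proteins. Polycomb repressive complex PRC2 writes H3K27me3, whereas H3K27me1 in Arabidopsis is best known from silent heterochromatin.

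Broad peaks of both marks touched the bodies of most of these genes. H3K27me3 touched at least 1 base of the gene body in 7 of 10 members, against 26.0% of all protein-coding genes. H3K27me1 touched 6 of 10 members, against 22.7% of all genes, and both marks were present in the same 6 gene bodies, against 17.5% of all genes. The members ranged from 2175 to 5684 bp (median 2897 bp) and so were longer than protein-coding genes at large (median 2078 bp). Among the 11802 genes in the members' length range, 29.4% were touched by H3K27me3 and 25.3% by H3K27me1. Coverage of at least 50% of the body was reached by 0 of 10 members for each mark, against 5.67% of all genes for H3K27me3 and 5.49% for H3K27me1. With 10 genes, 0 is near these shares and does not set the members apart.

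Summed over the 10 gene bodies, 17.5% of bases lay under H3K27me3 and 13.5% under H3K27me1. The same sums over all protein-coding genes were 5.88% for H3K27me3 and 5.47% for H3K27me1. The median member had 7.57% of its body under H3K27me3 and 4.16% under H3K27me1, whereas the median of all genes was 0% for both marks. The members thus differed widely among themselves, between 0% and 40.4% for H3K27me3 and between 0% and 42.7% for H3K27me1.

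**Figure D1:**
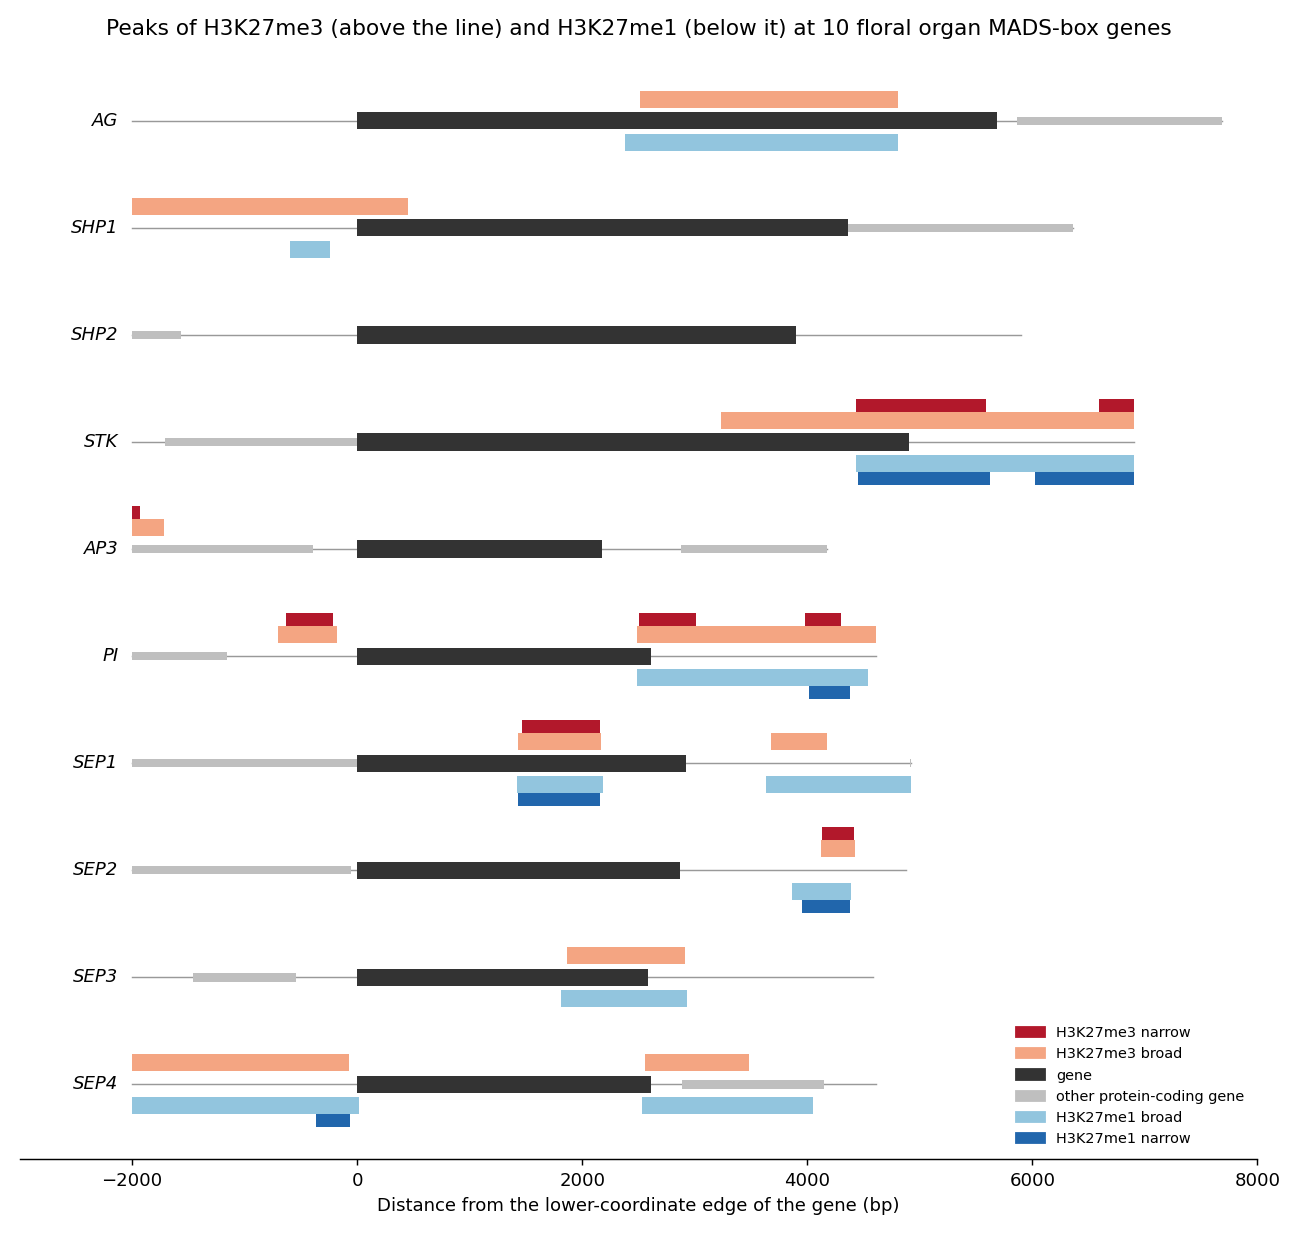
Map of the 10 genes drawn to scale, with distance from the lower-coordinate edge of each gene in bp on the x axis and 2 kb of flank on either side. H3K27me3 peaks stand above each line and H3K27me1 peaks below it, pale for broad and dark for narrow lists. Peaks of both marks lie inside AG and SEP1, and SHP2 has no peak.

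Among the class C and D genes, AG, SHP1 and STK carried H3K27me3 in the gene body and SHP2 did not. AG specifies stamens and carpels and ends the growth of the floral meristem. It had a single broad peak of each mark, and both lay wholly inside the gene. The H3K27me3 peak spanned 2297 bp on chromosome 4 from 10385367 to 10387663 (TAIR10). The authors' fold enrichment for it was 1.49 and its −log10 q was 1.82. The H3K27me1 peak spanned 2429 bp from 10385237 to 10387665 (1.43-fold, −log10 q = 2.03). The peaks ended 2 bp apart at the higher coordinate and began 130 bp apart at the lower one. Every base of H3K27me3 in AG was thus also under H3K27me1.

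The AG peaks lay away from both edges of the gene. Counted from the lower coordinate, H3K27me3 ran from 2511 to 4808 bp and H3K27me1 from 2381 to 4810 bp. With each gene cut into 10 equal bins, the AG peaks filled bins 6, 7 and 8, which both marks covered 100%. Over all genes, with or without a peak, H3K27me3 covered 3.82%, 4.13% and 4.87% of the bases in those bins. H3K27me1 covered 3.70%, 4.07% and 4.70% of them. As the bins were those that the AG peaks fill, these shares do not compare its position with that of peaks in other genes. The gene table holds neither strand nor exons, so the peak could not be placed relative to the large second intron for which AG is known. As much H3K27me3 in the gene body as in AG was found in 6.63% of all protein-coding genes, and as much H3K27me1 in 6.11%. Both peaks were among the weaker of their lists. A lower fold was held by 12.2% of the H3K27me3 and 11.4% of the H3K27me1 broad peaks. Neither flank of AG had a covered base, and the nearest narrow peak was 8510 bp away for H3K27me3 and 6804 bp for H3K27me1.

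STK, which specifies ovules and seed detachment, had the widest difference between the marks. H3K27me3 covered 1670 bp or 34.0% of its body, and H3K27me1 covered 475 bp or 9.68%. A single H3K27me3 broad peak of 6358 bp ran from 6239612 to 6245969 on chromosome 4 (1.75-fold, −log10 q = 5.11). The H3K27me1 peak inside that stretch ran from 6240807 to 6244603 (1.59-fold, −log10 q = 4.68). H3K27me3 therefore reached 1195 bp farther into the gene. It also extended past the H3K27me1 peak by 1366 bp on the other side, where it covered 100% of AT4G09965 and 2.88% of AT4G09970. The 2 kb flank above STK in coordinate was 100% under both marks, and the flank below it, which holds AT4G09950, had no covered base.

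The narrow lists placed the marks at STK in nearly the same positions. The narrow peak over the end of the gene ran from 6240805 to 6241963 for H3K27me3 and from 6240824 to 6241999 for H3K27me1. Their summits were 10 bp apart, 190 bp and 180 bp beyond the higher edge of the gene. In these lists STK was 9.72% under H3K27me3 and 9.33% under H3K27me1, a difference of 0.387 percentage points. Farther out, 1 more narrow peak of each mark had its summit 1788 bp (H3K27me3) and 1858 bp (H3K27me1) from the gene. These were among the stronger peaks of their lists, at 2.73-fold (−log10 q = 23.6) for H3K27me3 and 2.21-fold (−log10 q = 18.1) for H3K27me1.

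SHP1 and SHP2 are close paralogs that act together in the valve margin of the fruit, and they differed. In SHP1 a broad H3K27me3 peak of 2967 bp ran across the lower edge of the gene, on chromosome 3 from 21735649 to 21738615 (1.54-fold, −log10 q = 1.81). It covered 456 bp or 10.5% of the body and 100% of the flank below the gene. H3K27me1 had only a 352 bp peak in that flank, from 21737566 to 21737917 (1.56-fold, −log10 q = 2.49), which stopped 242 bp short of the gene. The uncovered flank on the other side lies within GAUT15. SHP2 had no peak of either mark in the gene or its flanks. Its nearest broad peak lay 12385 bp away for H3K27me3 and 12513 bp away for H3K27me1. The nearest narrow peaks to SHP1 lay 31457 bp (H3K27me3) and 31438 bp (H3K27me1) away. SHP2 was the only one of the 10 members without a broad peak in body or flanks, and 33.0% of all protein-coding genes had none there either.

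**Figure D2:**
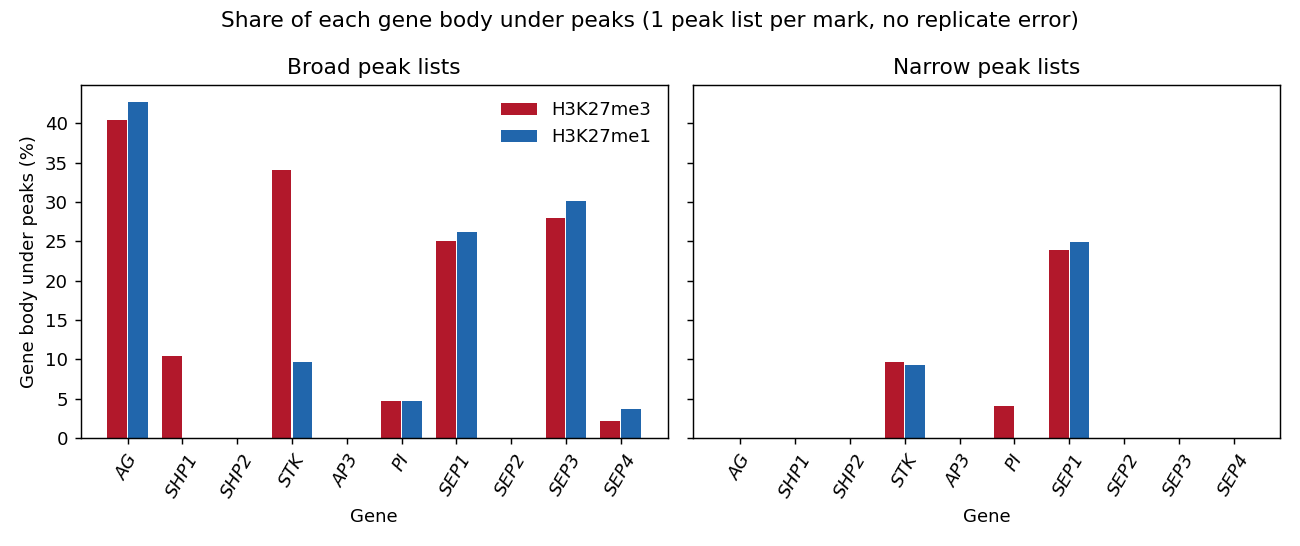
Percent of each gene body under H3K27me3 and H3K27me1 peaks, for the broad lists (left panel) and the narrow lists (right panel), with 1 value per gene and mark and no error bars. AG leads in the broad lists, at 40.4% for H3K27me3 and 42.7% for H3K27me1, and has 0% in the narrow ones, where SEP1 leads at 23.8% for H3K27me3 and 24.9% for H3K27me1.

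The class B genes AP3 and PI, whose products work as a heterodimer in petals and stamens, were hardly covered in their bodies. PI had 122 bp or 4.67% of its body under each mark, all of it at the higher edge. The broad peaks there began at the same base, 6831394 on chromosome 5, and ran to 6833660 for H3K27me3 (1.85-fold, −log10 q = 4.26) and to 6833443 for H3K27me1 (1.68-fold, −log10 q = 3.44). Most of their length thus lay beyond the gene, where H3K27me3 covered 100% and H3K27me1 96.4% of the flank above it. Each covered 100% of the noncoding gene AT5G00425, and H3K27me3 reached 2.94% of DIN10.

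A separate H3K27me3 peak stood on the other side of PI. It spanned 528 bp from 6828199 to 6828726 (1.86-fold, −log10 q = 4.60) and ended 177 bp below the gene, in sequence without an annotated gene. H3K27me1 had no peak in that flank. The narrow H3K27me3 list kept all of these places, with summits 545 bp below the lower edge, 4 bp inside the higher edge and 1507 bp above it. The narrow H3K27me1 list kept only the last, with a summit 1524 bp above the gene and 17 bp from that of H3K27me3. The narrow H3K27me3 peak at that place was enriched 3.09-fold (−log10 q = 16.8).

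AP3 had 0% of its body under either mark. On chromosome 3, H3K27me3 had a broad peak from 20115757 to 20117424 (1.66-fold, −log10 q = 2.29) that covered 285 bp of the flank below it, and a narrow H3K27me3 peak covered 72 bp there. The broad peak lay wholly within WRI1, a regulator of seed oil synthesis, and covered 39.2% of that gene. The nearest H3K27me1 broad peak was 2027 bp from AP3, just outside the flank.

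Of the class E genes, SEP1 and SEP3 had coverage inside the gene, SEP4 at its edges and SEP2 only outside. SEP1 had a broad peak of each mark wholly inside the gene, on chromosome 5 from 5152766 to 5153496 for H3K27me3 (1.74-fold, −log10 q = 2.96) and from 5152758 to 5153522 for H3K27me1 (1.68-fold, −log10 q = 3.51). H3K27me3 covered 25.0% and H3K27me1 26.2% of the body, and the peaks started 8 bp and ended 26 bp apart. SEP1 was the only member with a narrow peak wholly inside the gene, at 23.8% for H3K27me3 and 24.9% for H3K27me1. As much narrow coverage was found in 1.06% of all genes for H3K27me3 and 1.41% for H3K27me1. Both narrow peaks were below the median fold of their lists. The H3K27me3 peak was enriched 1.87-fold (−log10 q = 4.35), with a lower fold in 30.0% of its list. The H3K27me1 peak was enriched 1.69-fold (−log10 q = 4.12), with a lower fold in 22.6% of its list. The narrow summits were 2045 bp (H3K27me3) and 2086 bp (H3K27me1) from the lower edge, 41 bp apart.

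A broad peak wholly inside the gene was found in 2 of 10 members for each mark, AG and SEP1. Over all protein-coding genes this was found in 2.16% for H3K27me3 and 1.87% for H3K27me1. These shares are over genes of any length, and none was counted within the members' length range. A longer gene has more room for a whole peak, and AG was the longest member at 5684 bp. Whether the members differ from genes of their length in this was not tested. SEP1 also had a weaker pair of peaks above the gene, over 499 bp for H3K27me3 (1.51-fold) and 1294 bp for H3K27me1 (1.42-fold). H3K27me3 covered 24.95% of that flank and H3K27me1 64.3%. The H3K27me1 peak there reached 1.38% of AT5G15802.

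SEP3, a partner in most of the known floral complexes, had broad peaks over its higher edge. H3K27me3 ran on chromosome 1 from 8595401 to 8596451 and covered 27.9% of the body, and H3K27me1 ran from 8595345 to 8596470 and covered 30.1%. These peaks were near the bottom of their lists. The H3K27me3 peak was enriched 1.38-fold (−log10 q = 1.08), and 0.317% of its list had a lower fold. The H3K27me1 peak was enriched 1.39-fold (−log10 q = 1.70), and 3.89% of its list had a lower fold. No narrow peak lay closer than 9964 bp for H3K27me3 and 9967 bp for H3K27me1.

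SEP4 lay between peaks that only grazed the gene or stopped just short of it, the wider ones on the lower side. H3K27me3 had a 5918 bp peak on chromosome 2 from 1123242 to 1129159 (1.58-fold), which stopped 69 bp below the gene. The H3K27me1 peak from 1123197 to 1129242 (1.59-fold) was 6046 bp wide and entered the gene by 14 bp. Both covered 100% of the tRNA gene AT2G03700. H3K27me3 reached 1.90% and H3K27me1 5.19% of AT2G03690. On the other side, peaks from 1131783 to 1132712 for H3K27me3 (1.50-fold) and from 1131758 to 1133279 for H3K27me1 (1.63-fold) entered SEP4 by 56 bp (H3K27me3) and 81 bp (H3K27me1). H3K27me3 covered 47.1% and H3K27me1 92.1% of the neighbour MRH6. In all, SEP4 had 2.15% of its body under H3K27me3 and 3.64% under H3K27me1. In the narrow lists it kept a single 302 bp peak of H3K27me1 (1.58-fold), which ended 61 bp below the gene.

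SEP2, the closest relative of SEP1, had 0% of its body under either mark. A 300 bp H3K27me3 peak lay 1248 bp above the gene, on chromosome 3 from 468400 to 468699, in sequence without an annotated gene. Its enrichment was 2.47-fold (−log10 q = 12.8), and 99.8% of the H3K27me3 broad list had a lower fold. It had the highest fold of the H3K27me3 broad peaks at the members. The overlapping H3K27me1 peak from 468142 to 468668 was enriched 1.74-fold (−log10 q = 4.95), with a lower fold in 83.0% of its list. The summits of the narrow peaks there were 70 bp apart.

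**Figure D3:**
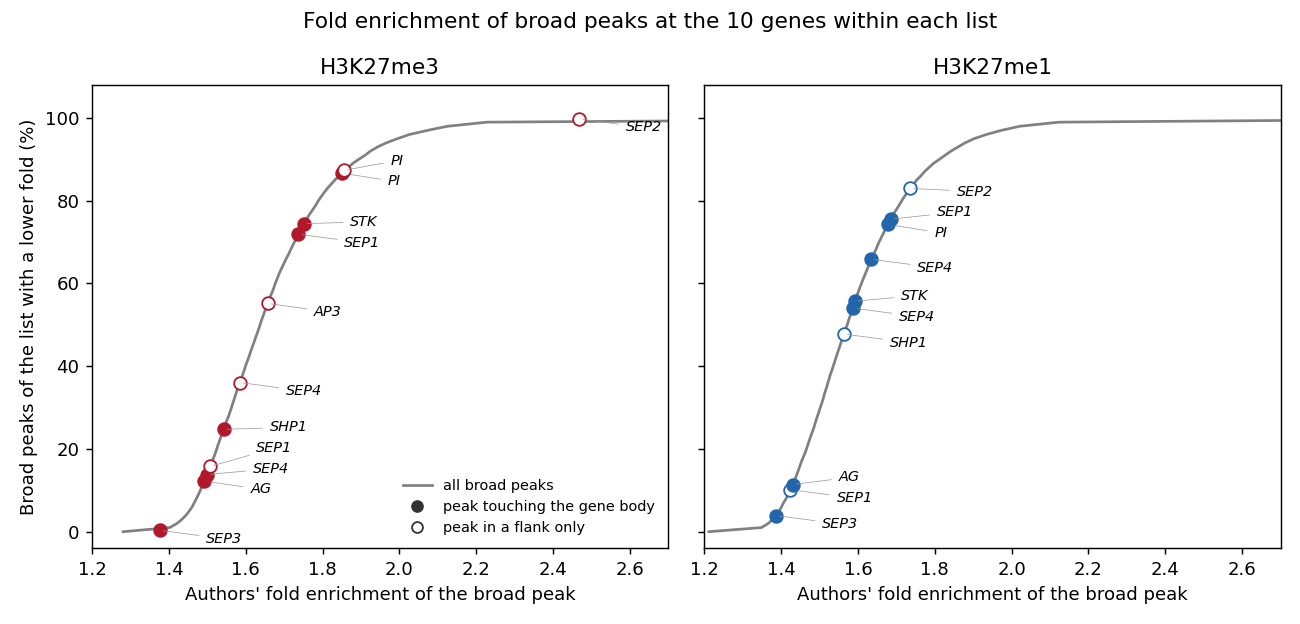
Authors' fold enrichment of each broad peak at the 10 genes (x axis) against the percent of broad peaks of the same list with a lower fold (y axis), H3K27me3 left and H3K27me1 right. Filled points touch a gene body, open points lie in a flank only, and the grey curve is the whole list. The AG and SEP3 peaks sit low on both curves, and the SEP2 flank peak sits at 99.8% for H3K27me3.

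The H3K27me3 broad peaks at these genes had folds from 1.38 to 2.47, and the H3K27me1 broad peaks had folds from 1.39 to 1.74, in lists whose highest folds were 3.88 and 3.55. There were 12 H3K27me3 broad peaks in the bodies and flanks, of which 6 had a fold above the list median of 1.64. There were 10 H3K27me1 broad peaks, of which 6 were above the list median of 1.57. Only 2 of the H3K27me3 peaks, at STK and SEP2, and 0 of the H3K27me1 peaks reached a −log10 q of 5. In the whole lists, 12.4% of H3K27me3 and 19.6% of H3K27me1 broad peaks did. The folds are the authors' values over the peak caller's background, and they rank peaks within a list only.

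The flanks were covered in most members, as they were in most genes. At least 1 base of the 2 kb flanks was covered by H3K27me3 in 8 of 10 members, against 61.6% of all genes, and by H3K27me1 in 7 of 10, against 55.4%. The median member had 10.3% of its flanks under H3K27me3 and 10.99% under H3K27me1, beside medians over all genes of 11.6% for H3K27me3 and 8.03% for H3K27me1. The side above the gene in coordinate was covered in 6 of 10 members for each mark, against 41.0% of all genes for H3K27me3 and 36.8% for H3K27me1. The side below it was covered in 4 members for H3K27me3, against 41.5% of all genes, and in 2 for H3K27me1, against 37.2%. Since the gene table gives no strand, these sides could not be read as upstream or downstream.

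Some members had much more of their flanks covered than others. H3K27me3 covered 70.1% of the flanks of SEP4, 63.2% of those of PI, and 50.0% of those of SHP1 and of STK. H3K27me1 covered 86.0% at SEP4, 50.0% at STK and 48.2% at PI, but 8.80% at SHP1. At AG and SHP2 the flanks had no covered base of either mark. AG was thus covered within the gene and bare in its flanks, whereas SEP4 was covered in its flanks and little within the gene.

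**Figure D4:**
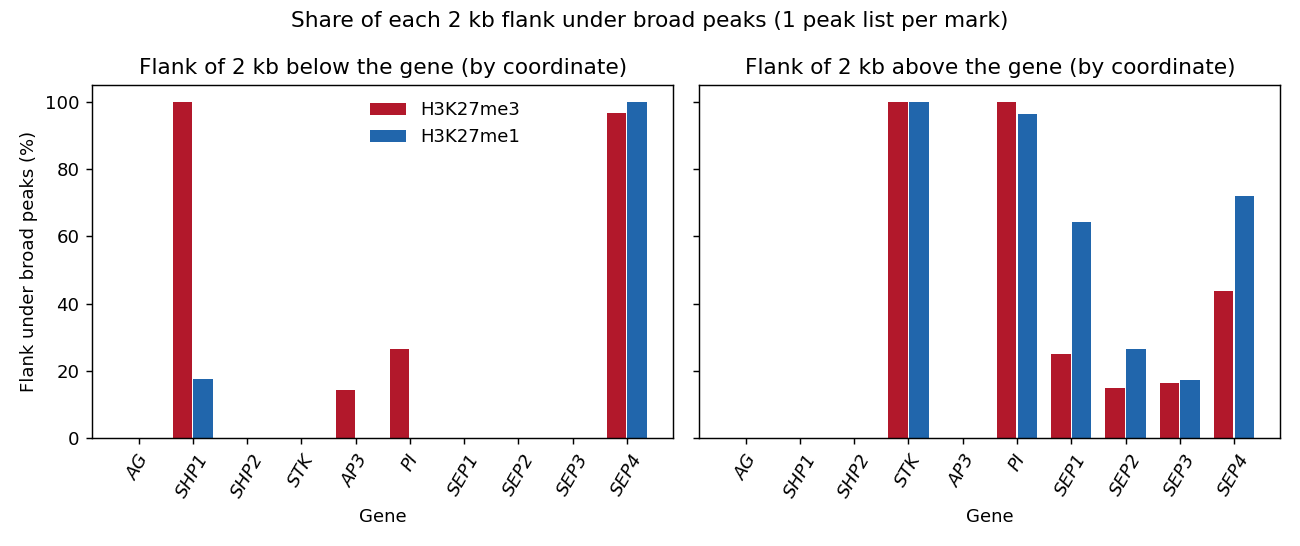
Percent of each 2 kb flank under broad peaks of H3K27me3 and H3K27me1, with the flank at lower coordinates in the left panel and that at higher coordinates in the right panel, 1 value per gene and mark. SEP4 is covered on both sides, STK and PI at or near 100% on the higher side, and SHP1 at 100% for H3K27me3 on the lower side.

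In the narrow lists fewer members were reached. A narrow H3K27me3 peak touched the body in 3 of 10 members (STK, PI and SEP1), against 8.25% of all genes. A narrow H3K27me1 peak touched 2 of 10 (STK and SEP1), against 8.5% of all genes. The flanks were touched in 4 of 10 members for each mark, against 33.4% of all genes for H3K27me3 and 31.6% for H3K27me1. AG, SHP1, SHP2 and SEP3 had no narrow peak of either mark in the body or the flanks. Narrow peaks of both marks touched the bodies of 2 members, against 5.4% of all genes. The body coverage of AG, SHP1, SEP3 and SEP4 therefore rested on broad peaks alone, as did that of PI for H3K27me1.

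Stricter choices within the broad lists also reached fewer members. At least 10% of the body was under H3K27me3 in 5 members, against 15.9% of all genes, and under H3K27me1 in 3, against 14.1%. Both marks reached that share in 3 members, AG, SEP1 and SEP3, against 10.3% of all genes. With the 50% of peaks that had the highest fold, H3K27me3 touched 3 members, against 14.9% of all genes, and H3K27me1 touched 4, against 12.9%. Peaks whose −log10 q reached 5 left H3K27me3 in the body of 1 member, STK, against 3.28% of all genes. Such peaks of H3K27me1 touched 0 members, against 5.02% of all genes, and both marks together touched 0, against 2.28%.

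In most members with broad peaks of both marks in the gene body, all H3K27me3 bases there were also under H3K27me1. SHP1 had H3K27me3 but no H3K27me1 in its body, and the same held for PI in the narrow lists. The share of bases under both marks was not counted over all genes, so whether these genes differ in it was not tested. Where both marks were in the gene body, H3K27me1 covered 100% of the H3K27me3 bases in AG, PI, SEP1, SEP3 and SEP4 and 28.4% of them in STK. Conversely, H3K27me3 covered 94.6% of the H3K27me1 bases in AG, 95.6% in SEP1, 92.8% in SEP3, 58.9% in SEP4 and 100% in STK and PI. By percent of the body, H3K27me3 was above H3K27me1 in 2 members, SHP1 by 10.5 and STK by 24.4 percentage points. It was below H3K27me1 in 4 members, by 1.16 to 2.32 points. Peaks of each mark were called on their own and the depth is unknown, so no difference between the marks was tested.

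Overlapping broad peaks of the marks at the members had close borders about as often as in the whole lists. Of 10 overlapping broad pairs at the members, 5 had starts and 4 had ends within 50 bp of each other. In the whole lists, 39.6% of starts and 40.0% of ends of 10864 overlapping pairs were that close. The median gap at the members was 51 bp for starts and 150 bp for ends. Over the whole broad lists it was 86 bp for starts and 83 bp for ends. Of 5 overlapping narrow pairs, at STK, PI, SEP1 and SEP2, 3 had summits within 50 bp, and the gaps ranged from 10 to 70 bp. The whole narrow lists had 47.8% of 7088 pairs that close, with a median gap of 54 bp.

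Coverage also varied among other regulators of flowering and flower development. Of 10 other floral MADS-box genes, H3K27me3 touched the bodies of 2 and H3K27me1 those of 2, with 0% as the median for both. Over all protein-coding genes, H3K27me3 touched 26.0% and H3K27me1 22.7%, and the median was likewise 0% for both. AP1, CAL and FUL, which act in floral meristem identity, and AGL6, SOC1 and AGL24 had no base of either mark in body or flanks. The same held for 33.0% of all protein-coding genes. In the lists described below, it held for 3 of 12 regulators outside the MADS-box family, 2 of 6 pollen MIKC* genes and 3 of 13 other MIKC genes. AGL13 had 46.5% of its body under H3K27me3 and 0% under H3K27me1. GOA had 34.9% under H3K27me3 and 28.2% under H3K27me1. SVP, a repressor of flowering, had 0% under H3K27me3 and 9.52% under H3K27me1. Their difference from the members was not tested.

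Among 12 regulators outside the MADS-box family, 6 were touched by H3K27me3, against 26.0% of all genes, and 4 by H3K27me1, against 22.7%. The median regulator had 0.593% of its body under H3K27me3 and 0% under H3K27me1. The genes named next were the 4 most covered of the 12. LFY, which activates the floral organ genes, had 23.5% of its body under H3K27me3 and 21.0% under H3K27me1. SEU, a corepressor of AG, had 11.8% under H3K27me3 and 10.9% under H3K27me1. SPL, needed for spore formation in the anther and ovule, had 18.4% under H3K27me3 and 0% under H3K27me1. For AP2, a class A gene that restricts AG, the shares were 7.55% (H3K27me3) and 1.12% (H3K27me1).

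Other MADS-box genes of the MIKC type included some with more coverage than AG. Of 13 such genes outside the flower lists, 6 were touched by each mark, against 26.0% of all genes for H3K27me3 and 22.7% for H3K27me1. Their median was 0% for both marks, and the genes named next were the 4 most covered of the 13. ANR1, known for the response of roots to nitrate, had 41.9% under H3K27me3 and 71.9% under H3K27me1. AGL18 had 42.4% under H3K27me3 and 30.6% under H3K27me1, AGL79 26.6% under H3K27me3 and 45.6% under H3K27me1, and AGL72 30.1% under H3K27me3 and 31.0% under H3K27me1. Of 6 pollen MIKC* genes, which act in late pollen development, H3K27me3 touched 2 and H3K27me1 touched 3, beside the same shares of all genes. AGL30 had 53.3% under H3K27me3 and 54.8% under H3K27me1, AGL67 had 32.9% under H3K27me3 and 32.4% under H3K27me1, and AGL66 had 0% under H3K27me3 and 4.13% under H3K27me1.

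**Figure D5:**
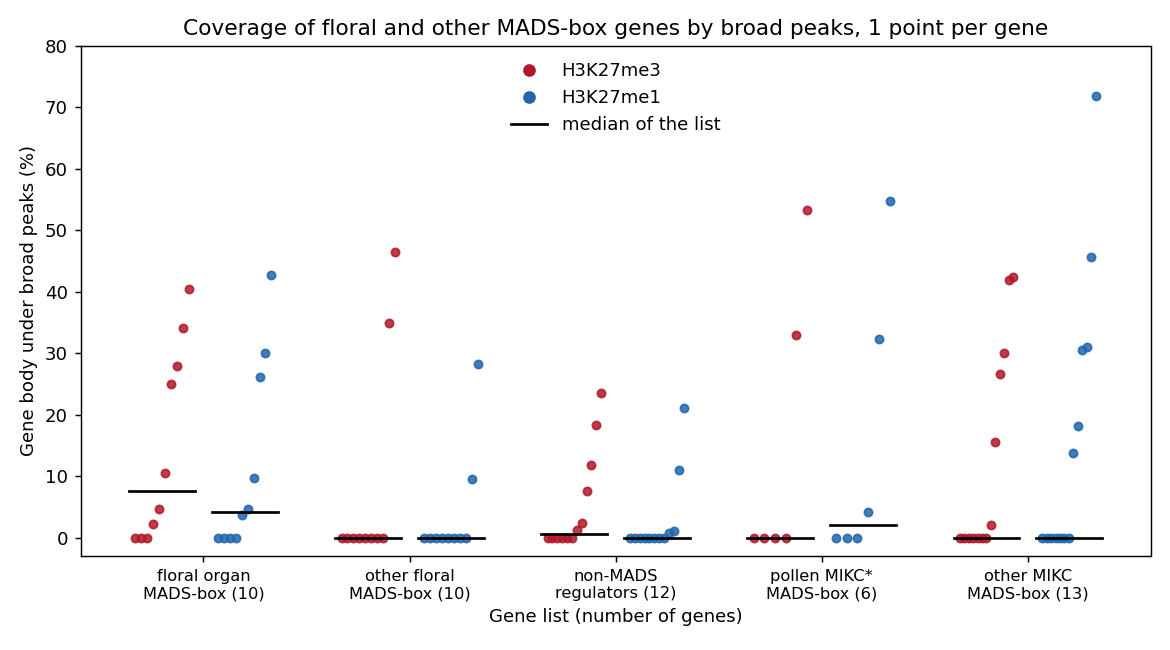
Percent of the gene body under broad peaks for every gene of 5 lists (x axis, number of genes in brackets), H3K27me3 points left of H3K27me1 points within each list and a black line at the list's median. The medians of the floral organ MADS-box genes are 7.57% for H3K27me3 and 4.16% for H3K27me1, while those of the 10 other floral MADS-box genes are 0% for both marks. Medians of the remaining lists lie between 0% and 0.593% for H3K27me3 and between 0% and 2.07% for H3K27me1.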

How the data were processed

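The submitters' processing notes list TAIR10 as the build. As tools, without saying what each was used for, they list MACS2 2.1.0, Bowtie2 2.1.0, Trim Galore 0.4.1, deepTools 2.5.0.1, SAMtools 1.3, bedtools and Picard. There are 4 deposited peak lists. The labels name the same broad and narrow list for the 3 samples of a mark, but do not say how samples and inputs were combined for peak calling. By the column layout, the deposited fold enrichment is a ratio of each peak to its local background. The deposited −log10 q is given per peak, and the deposited score is 10 times that value in whole numbers and was not used. The lowest deposited −log10 q was 1.02 for both broad lists and 2.00 for both narrow lists.

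Overlapping intervals were merged by base, and coverage was counted over gene bodies and 2 kb flanks (Python 3.11.15, pandas 2.3.3, numpy 2.4.6). The counting was tested on simulated intervals. Flanks include bases of neighbouring genes. Gene limits came from a table of 38312 genes on TAIR10.1, whose coordinates are not printed. Coordinates of peaks follow the files and count from 1. To check that both builds number the chromosomes alike, narrow peaks were slid along the genes by up to 3000 bp in steps of 100 bp. Their overlap with protein-coding genes was lowest without a shift in 10 of 10 sets of 1 mark and 1 chromosome. The members, the gene lists and the rule for naming genes were chosen with earlier results of these data known. The rule named all members, the up to 4 most covered genes of each other list, HTR10 and every annotated gene sharing a broad peak with a member. The uncovered genes AP1, CAL, FUL, AGL6, SOC1 and AGL24 and the neighbours GAUT15 and AT4G09950 fall outside that rule and were named after their values were seen. No test was made, because the lists hold no value per sample.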

Additional observations from a re-analysis of the deposited data

How the results depend on the processing

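Counts were lower in stricter lists. The members with H3K27me3 in the body numbered 7 in the broad list, 3 in the narrow list, 1 among broad peaks reaching a −log10 q of 5, 3 among the 50% of peaks with the highest fold, 5 at a minimum of 10% of the body and 0 at 50%. For H3K27me1 the 6 became 2 in the narrow list, 0 at a −log10 q of 5 or more, 4 among the 50% with the highest fold, 3 at 10% and 0 at 50%. The 6 members with both marks became 2 in the narrow lists, 0 at a −log10 q of 5 or more and 3 at a minimum of 10% by each mark. The median body coverage was 0% for both marks in the narrow lists, at a −log10 q of 5 or more and among the 50% with the highest fold. The median flank coverage was 0% for both marks in the narrow lists and at a −log10 q of 5 or more. For H3K27me3 it was 18.8% with 3 kb flanks and 19.8% over flank bases outside other genes, and for H3K27me1 21.6% over flank bases outside other genes. Fewer peaks in the stricter lists and fewer bases outside genes are part of how these alternatives are made. Extending gene bodies by 250 bp gave 7 members for each mark. The difference between the marks in percent of the body moved by over 1.5 times in 6 members in the narrow lists, in 5 at a −log10 q of 5 or more and in 4 among the 50% with the highest fold, mostly to 0 where no peak was left. In the narrow lists it was 0.387 points at STK and 4.13 points at PI, against 24.4 points at STK and 0 at PI in the broad lists. No paired analysis was possible because each list holds the 3 samples of a mark together, and for the same reason no sample could be left out.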
